A study of Mus musculus with 31 samples.

Results

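The comparison set 3 RNA-seq libraries of sorted mouse astrocytes labelled 2X PBS against 3 labelled 1X PBS, chosen by the titles of the samples alone. These are 6 of the 31 samples of the series and 6 of its 12 RNA-seq libraries. Per the labels, all mice were female, C57Bl/6, 10 weeks old and kept in a specific pathogen-free (SPF) facility, and phosphate-buffered saline (PBS) was injected into both lateral ventricles of the brain. The 2X PBS mice had an earlier PBS injection and were injected again on day 7, whereas the 1X PBS mice were injected on day 7 only. Astrocytes of both groups were sorted 18 to 24 hours after the day 7 injection, so both groups carry a recent needle passage and differ in whether an earlier one had been made. Neither the sort's markers nor the number of animals behind a library are stated in the labels, so the p-values rest on differences between libraries that may be technical. The other 6 RNA-seq libraries were labelled 2X cytokine and 1X cytokine, for IL-1β with TNF-α in place of PBS. They entered the main fit through the filter on low counts, the scaling and the shared estimate of the spread. Their own values are given only where they are named.

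Astrocytes are the glial cells that clear glutamate and potassium around synapses, pass water and metabolites between vessels and neurons, and line the brain's surfaces. After injury or inflammation they become reactive: the filament gene Gfap, protease inhibitors and complement genes are raised, partly through the gp130 and STAT3 pathway and partly through IL-1, TNF and NF-κB. An injection of saline into the ventricle opens a needle track and vessels and passes the choroid plexus, so a vehicle injection is itself known as a stimulus to nearby glia. The comparison asks what an earlier vehicle injection adds to the astrocyte transcriptome found a day after the last one.

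The 3 libraries labelled 1X PBS were not alike. Lcn2, the gene of the siderophore-binding protein lipocalin 2 that reactive astrocytes secrete, had 570.1, 363 and 426 CPM (counts relative to the library size, which TMM corrects for composition) in 2X PBS replicates 1 to 3, against 5.33, 1076 and 776 CPM in 1X PBS replicates 1 to 3. Correlations of log2 CPM were 0.966 to 0.977 within 2X PBS, and in 1X PBS 0.976 between replicates 2 and 3 but 0.827 and 0.831 between replicate 1 and those. On the first principal component of the 6 libraries, which held 57.6% of the variance, the 2X PBS libraries scored -7.30, -10.3 and -14.6, and 1X PBS replicates 1 to 3 scored -68.0, 51.1 and 49.2. The 2X PBS group thus lay between the libraries of the group it was set against. In the libraries labelled cytokine, Lcn2 had 14.99, 2.26 and 1.20 CPM in 2X cytokine and 797, 11.5 and 3.85 CPM in 1X cytokine, so that 5 of 6 libraries labelled PBS and 1 of 6 labelled cytokine were high in this cytokine-responsive gene. This runs against what the labels name. 1X PBS replicate 1 was within the Lcn2 range of the other 5 cytokine libraries, and 1X cytokine replicate 1 was within that of the other 5 PBS libraries. Whether these 2 libraries are exchanged cannot be told from the labels. Nor can it be told whether the names PBS and cytokine are right for the other libraries, those of 2X PBS included. What each value with and without 1X PBS replicate 1 compares depends on both. All groups are therefore called by the labels of their libraries. Library totals ran from 2330828 to 5521679 estimated counts in 2X PBS and from 2785087 to 4661577 in 1X PBS, and mitochondrially encoded genes took 4.38% to 5.61% of the counts in the 6 libraries. A level of 3 counts lay between 0.543 and 1.29 CPM. The sort label was checked on its markers: the 26 astrocyte genes stood at geometric means (of CPM + 0.5, as for every list) of 776, 778 and 838 CPM in 2X PBS and 1023, 322 and 324 CPM in 1X PBS, while the choroid plexus list stood at 139, 127 and 132 against 87.3, 235 and 231 CPM and the oligodendrocyte list at 178, 142 and 127 against 237, 261 and 215 CPM, so RNA of other cell types was present in every library.

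Over all genes and all 12 libraries, edgeR called 0.0% of 14490 genes between 2X PBS and 1X PBS at an adjusted p of 0.05, with a smallest adjusted p of 0.311. An unadjusted p under 0.05 was reached by 914 genes (6.31%), of which 443 were higher and 471 lower in 2X PBS. DESeq2 on the same libraries called 17 genes, or 0.117%, 13 higher and 4 lower. The groups did not overlap in 1658 genes. All 3 libraries of 2X PBS stood above all 3 of 1X PBS in 782 (5.4% of the genes tested) and below them in 876 (6.05%). A random order of 3 and 3 libraries would give shares close to these. The absence of overlap in a single gene is therefore a description and not a test. With the 3 libraries of 2X PBS set against 1X PBS replicates 2 and 3 alone, edgeR called 3466 of 14710 genes (23.6%), 1778 higher (12.1%) and 1688 lower (11.5%). The left-out library was chosen for its values, and the biological coefficient of variation was 0.103 over the 5 libraries left, against 0.251 over the 6. The calls of this 5-library comparison describe these 5 libraries, with 2 on the 1X side. With the cytokine libraries kept and only 1X PBS replicate 1 left out, 1116 genes were called, 751 higher and 365 lower. Of the genes called in the 5-library comparison, the groups did not overlap with replicate 1 included in 319 of the 1778 higher and 223 of the 1688 lower. Because edgeR called no gene with replicate 1 included, each count of genes called by edgeR that follows is of the 5-library comparison, and the median log2 fold change or the overlap of the groups with all libraries stands beside it. Counts for a list are to be read beside the shares over all genes. These were 12.1% called higher and 11.5% called lower, and 5.4% higher and 6.05% lower without overlap.

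**Figure D1:**
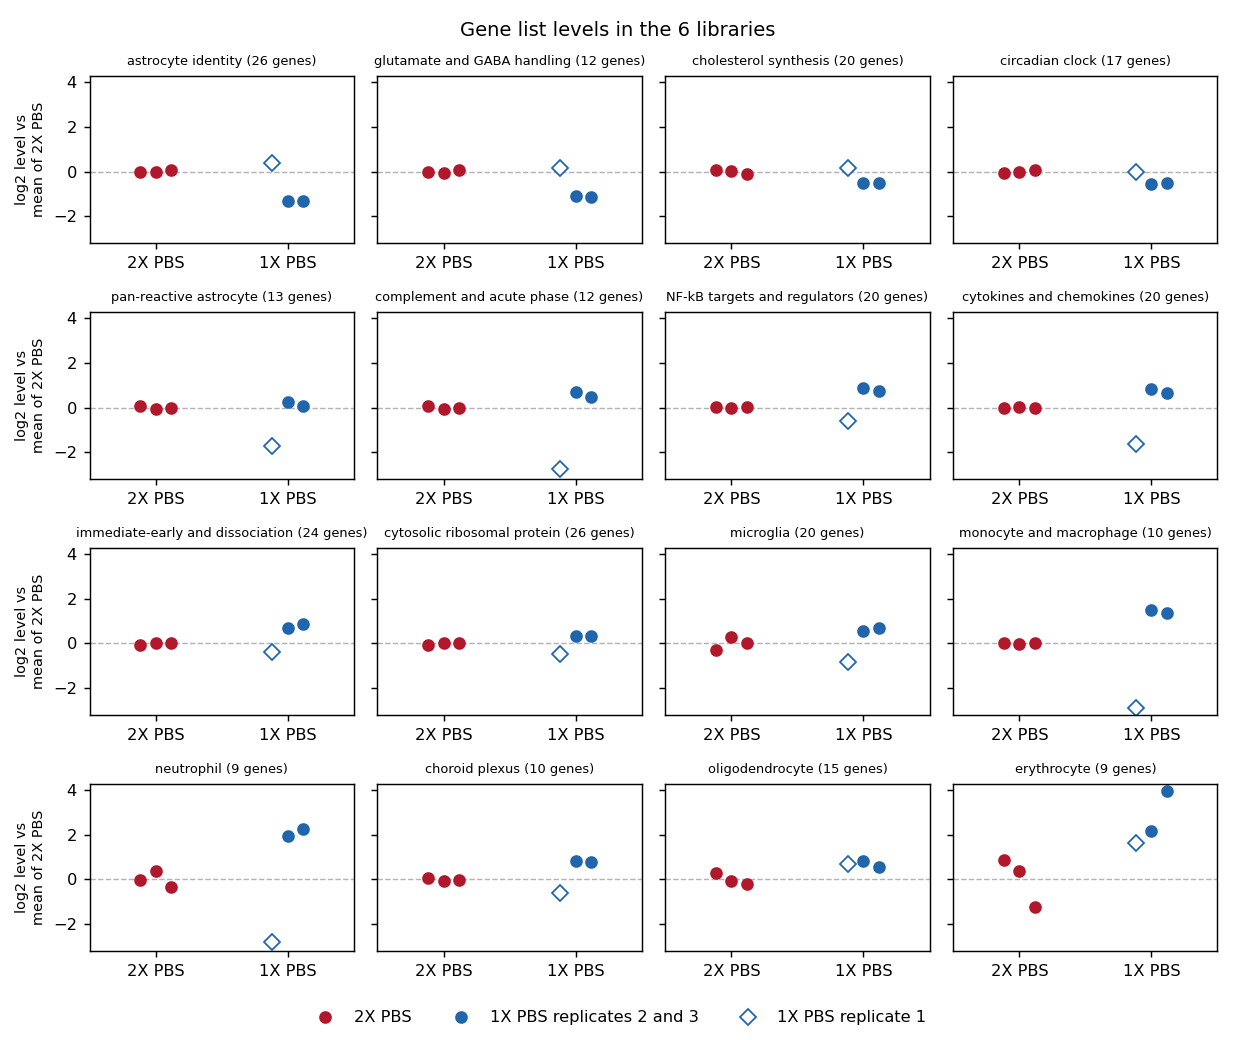
Level of 16 gene lists in each of the 6 libraries, as the geometric mean of CPM + 0.5 over the members tested, relative to the mean of the 3 libraries of 2X PBS on a log2 axis; left points are 2X PBS, right points 1X PBS, with 1X PBS replicate 1 drawn as an open diamond. For the astrocyte list replicate 1 lies above and replicates 2 and 3 lie below 2X PBS, and for the complement, NF-κB and myeloid lists the order is turned round; the oligodendrocyte and erythrocyte lists have all 3 libraries of 1X PBS above 2X PBS.

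The genes of astrocyte reactivity divided into a set that was highest in 2X PBS and a set that was highest in 1X PBS replicates 2 and 3. Gfap, the intermediate filament gene used as the marker of reactive astrocytes, had 1141, 1043 and 1095 CPM in 2X PBS, against 189, 702 and 585 CPM in 1X PBS. Every 2X PBS library was above every 1X PBS library. The log2 fold change was 1.15 ± 0.53 (SE) with all libraries, at an edgeR adjusted p of 0.776, and 0.80 ± 0.11 without 1X PBS replicate 1, at an adjusted p of 0.000104. Aspg, an asparaginase gene of the published pan-reactive astrocyte set, had 55.0, 48.8 and 42.0 CPM in 2X PBS, against 10.7, 15.5 and 17.9 CPM in 1X PBS, where all 3 libraries were low. Its log2 fold change was 1.71 ± 0.43 with all libraries (adjusted p = 0.609) and 1.56 ± 0.17 without replicate 1 (adjusted p = 1.52e-05). Serpina3n, a serine protease inhibitor gene, had 977, 691 and 676 CPM in 2X PBS, against 62.4, 652 and 476 CPM in 1X PBS. The nearest libraries of the 2 groups thus stood close, at 676 and 652 CPM. Timp1, the metalloproteinase inhibitor gene, had 192, 180.4 and 158 CPM against 143, 124 and 129 CPM. Without replicate 1 both rose in 2X PBS, by log2 0.50 ± 0.16 (adjusted p = 0.0392) and 0.51 ± 0.11 (adjusted p = 0.00321). With all libraries their log2 fold changes were 0.97 ± 0.96 and 0.42 ± 0.33 (adjusted p = 0.837 and 0.8105).

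Of the 13 pan-reactive genes tested, 4 were above 1X PBS in every 2X PBS library, against 5.4% of all genes, and 0 were below it in every one, against 6.05%. The list's median log2 fold change with all libraries was -0.0075. Without replicate 1 the same list had 4 genes called higher, 6 called lower and 3 not called, with a median log2 fold change of -0.34, beside a median of 0.0058, 12.1% called higher and 11.5% called lower over all genes. Those called lower included Lcn2, by 1.00 ± 0.17 on the log2 scale (adjusted p = 0.000568), Vim, another intermediate filament gene, by 0.41 ± 0.10 (adjusted p = 0.0101), and Cd44, a hyaluronan receptor, by 0.94 ± 0.12 (adjusted p = 7.77e-05). With all libraries the log2 fold changes of Lcn2, Vim and Cd44 were -0.45 ± 1.54, -0.29 ± 0.20 and -0.64 ± 0.40 (adjusted p = 0.958, 0.796 and 0.787). Vim had 1138, 1097 and 1297 CPM in 2X PBS, against 1118, 1604 and 1610.0 CPM in 1X PBS, so replicate 1 lay within the 2X PBS range. Cd44 had 59.7, 55.5 and 44.7 CPM in 2X PBS, against 37.7, 106 and 104 CPM in 1X PBS, with replicate 1 below all 2X PBS libraries. The A1-type list had 1 gene called higher and 4 lower of 11, and the A2-type list 0 higher and 5 lower of 11, so that the higher calls were not more frequent than over all genes (12.1%). With all libraries 3 A1-type and 0 A2-type genes were higher without overlap, and the medians were -0.017 and -0.16. Replicate 1 of 1X PBS was below all 2X PBS libraries in 12 of 13 pan-reactive, 11 of 11 A1-type and 9 of 11 A2-type genes.

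The promoters of Gfap and of Nfkbia, an NF-κB target described further on, are shown as those of 1 gene highest in 2X PBS and 1 gene highest in 1X PBS replicates 2 and 3. Both are RefSeq sequences on GRCm38.p6, from 250 bases before to 50 after the annotated start, read on the minus strand, at chr11:102897151-102897450 for Gfap and at chr12:55492598-55492897 for Nfkbia. The capitals mark the only match of the motifs searched on both strands, which were the GAS core TTCNNNGAA of STAT proteins, the NF-κB site and the glucocorticoid response element. In Gfap the capitals are the GAS core, which starts 2 bases before the annotated start, and in Nfkbia they are an NF-κB site on the reverse strand that starts 29 bases before it.
Gfap: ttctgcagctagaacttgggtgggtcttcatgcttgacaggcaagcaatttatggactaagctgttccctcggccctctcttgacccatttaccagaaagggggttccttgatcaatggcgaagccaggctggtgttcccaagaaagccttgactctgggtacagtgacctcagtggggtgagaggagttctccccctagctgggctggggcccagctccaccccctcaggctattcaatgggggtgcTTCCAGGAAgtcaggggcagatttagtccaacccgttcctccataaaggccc
Nfkbia: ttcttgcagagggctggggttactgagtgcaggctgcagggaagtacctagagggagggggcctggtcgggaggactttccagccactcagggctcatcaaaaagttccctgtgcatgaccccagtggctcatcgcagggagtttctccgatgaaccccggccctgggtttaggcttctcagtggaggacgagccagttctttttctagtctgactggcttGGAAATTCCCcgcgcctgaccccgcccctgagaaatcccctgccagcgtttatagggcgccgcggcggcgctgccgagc
Of 27025 mouse genes with such a window, taken at 1 start per gene, 8.47% held a GAS core, 1.62% the NF-κB site and 1 gene the glucocorticoid response element. Named genes were searched at all their starts, so these shares are not of quite the same windows. The motifs did not divide the named genes by direction: Serpina3n and Csf1, higher in 2X PBS, each held an NF-κB site, Socs3, lower in 2X PBS, held a GAS core, and Timp1 and Lcn2 held neither. A match is a description of the letters and shows no binding.

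Complement genes showed the same division within 1 list. C4b, a component of the classical pathway, had 429, 455 and 401 CPM in 2X PBS, against 91.3, 288 and 264 CPM in 1X PBS. The groups did not overlap, and without replicate 1 it rose by log2 0.67 ± 0.10 (adjusted p = 0.000276), with a log2 fold change of 0.99 ± 0.49 with all libraries (adjusted p = 0.776). C3, the central component, went the other way against replicates 2 and 3, with 629, 337 and 419.6 CPM in 2X PBS, against 26.6, 997 and 634 CPM in 1X PBS. Hp, the gene of the hemoglobin-binding acute-phase protein haptoglobin, had 28.8, 29.2 and 32.0 CPM in 2X PBS, against 6.85, 133 and 116 CPM in 1X PBS. Of the 12 complement and acute-phase genes tested, 2 were called higher and 9 lower without replicate 1, against 12.1% and 11.5% of all genes. With all libraries 2 were higher without overlap, against 5.4% of all genes. The median log2 fold change was -0.16, and replicate 1 lay below all 2X PBS libraries in 12 of 12. Reads of C4b and of its near-identical neighbour C4a can be divided between them by the counting, so the level of C4b is uncertain.

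**Figure D2:**
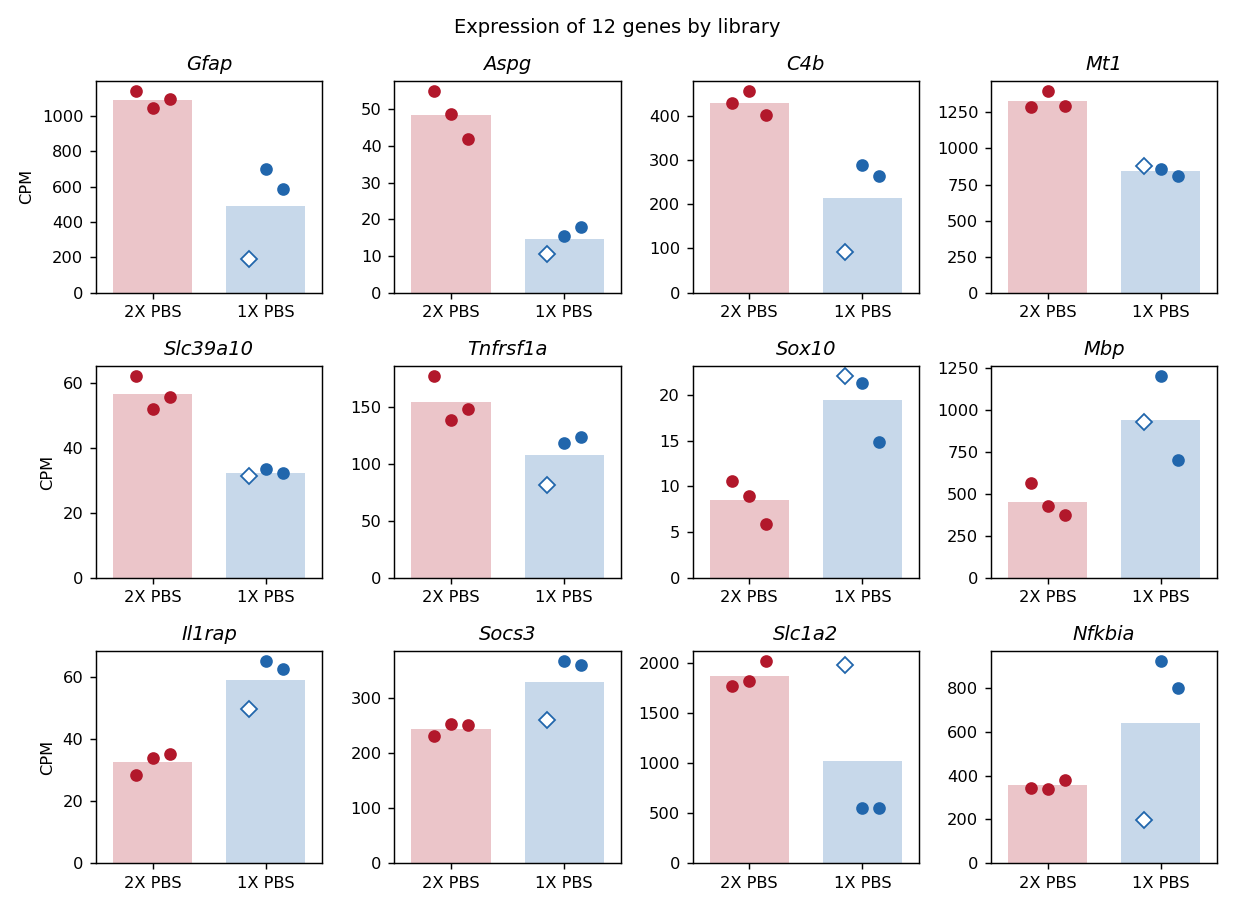
CPM of 12 genes in each library (linear axes from 0; points are libraries, bars are group means over 3 libraries, 2X PBS left and 1X PBS right, and the open diamond is 1X PBS replicate 1). The first 6 genes have every 2X PBS library above every 1X PBS library, the next 4 every 2X PBS library below, and Slc1a2 and Nfkbia have replicate 1 and replicates 2 and 3 of 1X PBS on opposite sides of, or at different distances from, 2X PBS.

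Some genes of metal handling were higher in 2X PBS and others lower. Mt1, the gene of the zinc- and copper-binding metallothionein 1, had 1290.0, 1398 and 1297 CPM in 2X PBS, against 877, 858 and 806 CPM in 1X PBS, and here the libraries of each group stood close together, replicate 1 included. Its log2 fold change was 0.65 ± 0.17 with all libraries (adjusted p = 0.609) and 0.71 ± 0.10 without replicate 1 (adjusted p = 0.000164). Slc39a10, a zinc importer gene, had 62.2, 52.1 and 55.7 CPM in 2X PBS, against 31.6, 33.5 and 32.2 CPM in 1X PBS, a log2 fold change of 0.80 ± 0.13 with all libraries (adjusted p = 0.311) and 0.81 ± 0.13 without replicate 1 (adjusted p = 0.000533). The metal list as a whole was mixed. Of 11 genes tested, 5 were called higher and 4 lower without replicate 1, against 12.1% and 11.5% of all genes. The median log2 fold change was then 0.41. With all libraries 2 were higher without overlap, against 5.4% of all genes, and the median was 0.16. Mt2 had 166, 214 and 171 CPM in 2X PBS, against 197, 154 and 132 CPM in 1X PBS, and the groups overlapped. Ftl1, the ferritin light chain gene of iron storage, had 987, 952 and 1012 CPM in 2X PBS, against 908, 1418 and 1631 CPM in 1X PBS, and was called lower without replicate 1, by 0.60 ± 0.10 (adjusted p = 0.000649), with a log2 fold change of -0.42 ± 0.22 with all libraries (adjusted p = 0.782).

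Among the 12 genes annotated as protein-coding that had the smallest unadjusted p and were higher in 2X PBS without overlap, several encode enzymes. Naprt, which starts NAD synthesis from nicotinic acid, had 82.5, 78.9 and 79.1 CPM in 2X PBS, against 57.8, 32.7 and 29.0 CPM in 1X PBS. Inmt, an indolethylamine methyltransferase gene, had 27.5, 26.1 and 40.0 CPM in 2X PBS, against 12.6, 11.9 and 11.6 CPM in 1X PBS. The log2 fold changes with all libraries were 1.02 ± 0.22 for Naprt and 1.37 ± 0.25 for Inmt, at adjusted p-values of 0.541 and 0.337. Without replicate 1 they were 1.41 ± 0.12 and 1.43 ± 0.22, at adjusted p-values of 2.17e-06 and 0.0003005. Pde2a, a cyclic nucleotide phosphodiesterase gene, had 12.7, 14.6 and 18.1 CPM in 2X PBS, against 3.80, 5.54 and 5.80 CPM in 1X PBS, and Cpeb1, which binds mRNA tails and sets their translation, had 40.2, 44.4 and 48.6 CPM against 27.8, 23.3 and 27.8 CPM. Slc39a10, Plpp4, Rhobtb2, Adamtsl2, Cd302, Dhrs1 and Phyhd1 were also among the 12. For these 12 genes replicate 1 of 1X PBS stood with replicates 2 and 3, as the rule requires, and each was among the 13 that DESeq2 called higher. The remaining one was Tspan4, a tetraspanin gene named here after its values were seen. Its unadjusted p was smaller than those of the 12, but its identifier had no match in the annotation, so the rule for protein-coding genes left it out. It had 123, 124 and 153 CPM in 2X PBS, against 76.8, 70.1 and 57.5 CPM in 1X PBS.

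Astrocyte identity genes moved in 1 direction once replicate 1 was left out: 26 of 26 were called higher in 2X PBS, with a median log2 fold change of 1.44, against 12.1% of all genes called higher and a median of 0.0058. With all 6 PBS libraries, 25 of 26 had a higher mean in 2X PBS, 3 did not overlap, 0 were called, and the median was 0.51, against -0.029 over all genes. In 1X PBS replicate 1, 21 of the 26 stood above all 2X PBS libraries. Slc1a2, the main glutamate transporter gene of forebrain astrocytes, had 1765, 1823 and 2015 CPM in 2X PBS, against 1974, 546 and 546 CPM in 1X PBS. Its log2 fold change was 1.81 ± 0.11 without replicate 1 (adjusted p = 1.84e-07) and 0.87 ± 0.45 with it (adjusted p = 0.783). Slc1a3, the other glial glutamate transporter gene, had 4102, 4822 and 5590.0 CPM in 2X PBS, against 8224, 2074 and 1690.0 CPM in 1X PBS. Aqp4, the water channel gene of astrocyte endfeet, had 696, 709 and 658 CPM in 2X PBS, against 789, 266 and 279 CPM in 1X PBS. In each of these 3 genes the 2X PBS libraries and 1X PBS replicate 1 stood well above replicates 2 and 3, and replicate 1 was within the 2X PBS range for Slc1a2 and above it for Slc1a3 and Aqp4.

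Other genes of the astrocyte programme were also higher in 2X PBS than in replicates 2 and 3, with replicate 1 above 2X PBS in some and below it in others. Gja1, the gap junction gene connexin 43, had 1989, 1889 and 2005 CPM in 2X PBS, against 3081, 783 and 942 CPM in 1X PBS, and Sox9, an astrocyte transcription factor gene, had 384, 351 and 405 CPM against 539, 216 and 201 CPM. Htra1, a secreted serine protease gene, had 1456, 1285 and 1396 CPM in 2X PBS, against 644, 443 and 452 CPM in 1X PBS. Slc7a10, which carries serine and other small neutral amino acids, had 592, 574 and 534 CPM in 2X PBS, against 432, 189.8 and 208 CPM in 1X PBS, and Fgfr3, a fibroblast growth factor receptor gene, had 1022, 912 and 971 CPM against 869, 295 and 282 CPM. Htra1, Slc7a10 and Fgfr3 were the 3 identity genes whose groups did not overlap with replicate 1 included, with replicate 1 below 2X PBS, at log2 fold changes of 1.43 ± 0.53, 1.03 ± 0.47 and 1.01 ± 0.50 with all libraries and 1.66 ± 0.10, 1.54 ± 0.10 and 1.78 ± 0.10 without replicate 1. Fewer astrocytes in a library and less RNA of a gene per astrocyte cannot be told apart in these bulk samples.

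Transmitter handling went the same way as identity, but Slc1a2 is in both lists, so their counts are not independent. Of 12 glutamate and GABA genes, 10 were called higher and 0 lower without replicate 1, against 12.1% and 11.5% of all genes. The median log2 fold change was then 1.11. With all libraries 2 were higher without overlap, against 5.4% of all genes, and the median was 0.59. Slc6a11, the GABA transporter gene GAT3, had 478, 437 and 427 CPM in 2X PBS, against 576, 96.7 and 114 CPM in 1X PBS, and the GABA-B receptor subunit Gabbr2 had 45.3, 38.9 and 37.0 CPM against 57.8, 8.03 and 9.28 CPM. Glud1, the glutamate dehydrogenase gene, had 482, 450.5 and 551 CPM in 2X PBS, against 370.5, 283 and 260.0 CPM in 1X PBS, and its groups did not overlap. Among the genes named from the 5-library comparison that were higher in 2X PBS, the largest log2 fold changes were those of Hapln1, Dpep1 and Hes5. Dpep1, a membrane dipeptidase gene, had 14.0, 14.96 and 21.0 CPM in 2X PBS, against 5.33, 4.16 and 2.09 CPM in 1X PBS, without overlap, a log2 fold change of 2.47 ± 0.34 without replicate 1 and 2.15 ± 0.52 with it. Hapln1, which links hyaluronan and proteoglycans around neurons, had 14.8, 13.9 and 17.5 CPM in 2X PBS, against 23.6, 2.22 and 1.62 CPM in 1X PBS, and Hes5, a Notch target gene of radial glia and astrocytes, had 59.7, 74.1 and 88.5 CPM against 128, 11.4 and 18.1 CPM. The log2 fold changes of Hapln1 and Hes5 were 3.03 ± 0.33 and 2.36 ± 0.21 without replicate 1 (adjusted p = 1.9e-05 and 2.71e-06), and 0.86 ± 0.74 and 0.54 ± 0.74 with it.

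**Figure D3:**
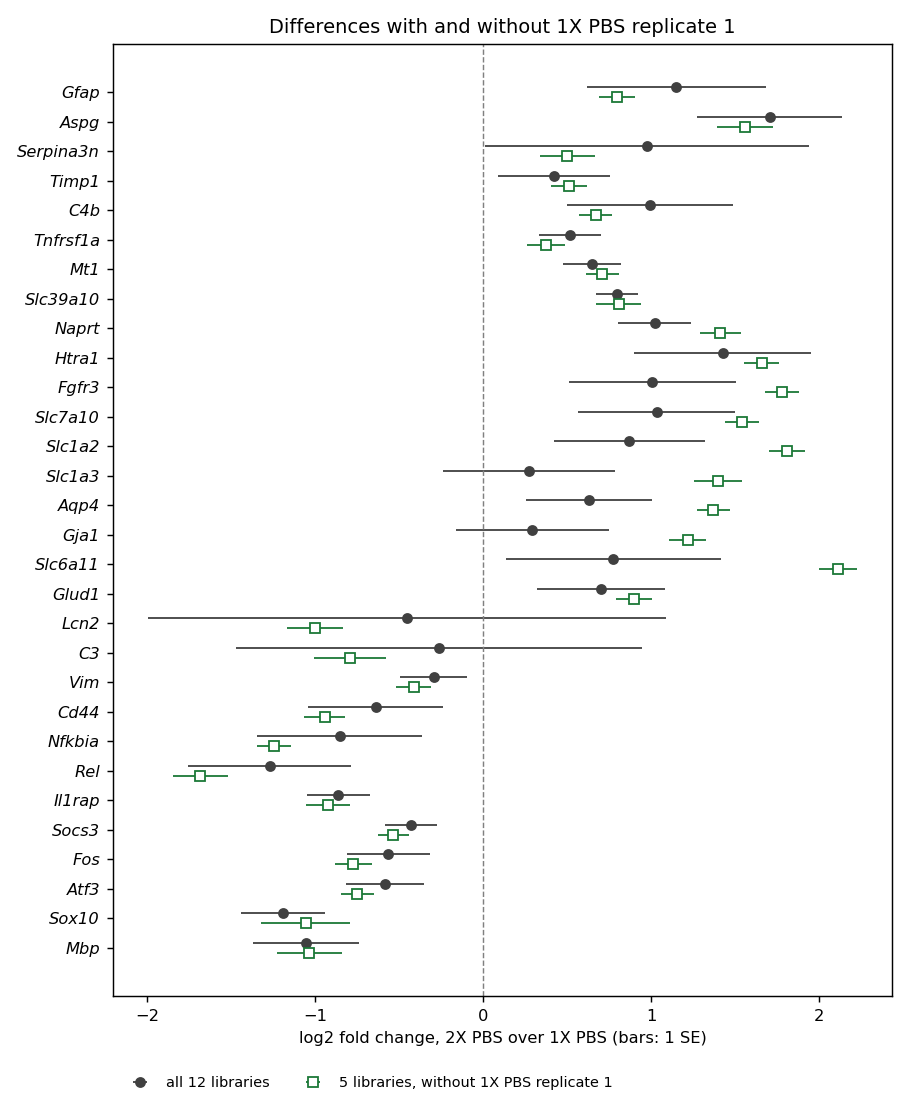
Log2 fold change of 2X PBS over 1X PBS for 30 genes, with all 12 libraries in the fit (filled circles) and with 1X PBS replicate 1 and the cytokine libraries left out (open squares); bars are 1 SE and the dashed line is no difference. The identity and transmitter genes have positive and the NF-κB and immediate-early genes negative values of larger size and smaller error without replicate 1, and all 30 genes keep the sign of their difference in both.

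Inflammatory signalling genes were lower in 2X PBS than in replicates 2 and 3 of 1X PBS. Of 20 NF-κB targets and regulators, 13 were called lower and 1 higher without replicate 1, against 11.5% and 12.1% of all genes. Their median log2 fold change was then -0.64. With all libraries 18 of 20 had a lower mean and 0 were called. The groups did not overlap in 3, all lower in 2X PBS, against 6.05% of all genes. Nfkbia, the inhibitor gene that NF-κB itself induces and whose promoter is printed above, had 343, 340.3 and 382 CPM in 2X PBS, against 199, 924 and 803 CPM in 1X PBS. It fell by 1.25 ± 0.10 on the log2 scale without replicate 1 (adjusted p = 1.24e-06) and had a log2 fold change of -0.85 ± 0.49 with it (adjusted p = 0.783). Rel, an NF-κB subunit gene, had 15.7, 18.0 and 18.1 CPM in 2X PBS, against 9.13, 49.0 and 65.4 CPM in 1X PBS. Traf1, a TNF receptor adaptor gene, was 1 of the 3 whose groups did not overlap, at 42.8, 46.1 and 31.4 CPM in 2X PBS and 58.2, 73.4 and 56.4 CPM in 1X PBS. In 12 of the 20 genes replicate 1 was below all 2X PBS libraries, so it lay farther from replicates 2 and 3 than the 2X PBS libraries did.

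Receptors and ligands were mixed. Il1rap, the shared accessory chain of the IL-1 receptors, was lower in every 2X PBS library, at 28.4, 33.8 and 35.2 CPM, against 49.8, 65.1 and 62.6 CPM in 1X PBS, a log2 fold change of -0.86 ± 0.19 with all libraries (adjusted p = 0.547) and -0.92 ± 0.13 without replicate 1 (adjusted p = 0.000166). Tnfrsf1a, the main TNF receptor gene, was higher in every 2X PBS library, at 176, 138 and 148 CPM, against 81.0, 118 and 123 CPM in 1X PBS. Csf1, the growth factor of microglia and macrophages, had 75.3, 71.7 and 54.8 CPM in 2X PBS, against 30.8, 42.7 and 48.0 CPM in 1X PBS, again without overlap. Of 20 cytokine and chemokine genes, 10 were called lower and 2 higher without replicate 1, against 11.5% and 12.1% of all genes. The higher calls were thus not more frequent than over all genes. With all libraries 3 were higher without overlap, against 5.4% of all genes, and the median log2 fold change was -0.43. Ccl3, a chemokine of activated microglia and macrophages, had 14.0, 29.9 and 15.4 CPM in 2X PBS, against 9.51, 59.6 and 68.4 CPM in 1X PBS. Socs3, the feedback inhibitor of the gp130 receptors, had 232, 252 and 251 CPM in 2X PBS, against 261, 367 and 361 CPM in 1X PBS, without overlap and with replicate 1 close to 2X PBS. Stat3 had 289.5, 276 and 295 CPM in 2X PBS, against 178, 319 and 274 CPM in 1X PBS, and its log2 fold change was -0.01 ± 0.10 without replicate 1 and 0.16 ± 0.23 with it (adjusted p = 0.95 and 0.887).

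Immediate-early genes answer within minutes to stimulation and to tissue dissociation. Of 24 such genes, 20 were called lower and 0 higher in 2X PBS without replicate 1, against 11.5% and 12.1% of all genes. Their median log2 fold change was then -0.79. With all libraries the median was -0.55 and 1 was lower without overlap, against 6.05% of all genes. Fos had 1704, 1450.0 and 1370.0 CPM in 2X PBS, against 1412, 2570.0 and 2705 CPM in 1X PBS, so replicate 1 lay within the 2X PBS range. Atf3, a stress-induced transcription factor gene, had 336, 360.2 and 367 CPM in 2X PBS, against 372, 577 and 644 CPM in 1X PBS, and did not overlap, with replicate 1 just above the highest 2X PBS library. Interferon-stimulated genes were mostly not called: of 19 in the 5-library comparison, 1 was higher and 4 lower, against 12.1% and 11.5% of all genes. With all libraries their median log2 fold change was -0.0027. Ifit3, an antiviral gene, was the 1 called higher, at 79.2, 78.7 and 73.7 CPM in 2X PBS, against 68.5, 39.6 and 41.8 CPM in 1X PBS. Of 20 MHC class I presentation genes 1 was called higher, fewer than the 12.1% of all genes, and 7 lower, against 11.5%. The median with all libraries was -0.12. Psmb10, a subunit of the immunoproteasome, was the higher one, at 44.4, 37.3 and 43.8 CPM in 2X PBS, against 25.9, 28.5 and 29.5 CPM in 1X PBS.

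Markers of blood-borne and resident immune cells moved with the inflammatory genes, and their part in those differences was not tested. The 9 neutrophil markers stood at geometric means of 17.4, 22.8 and 14.0 CPM in 2X PBS, against 2.57, 67.4 and 83.3 CPM in 1X PBS, and 8 of them were called lower without replicate 1. The 10 monocyte and macrophage markers stood at 13.4, 12.9 and 13.6 CPM in 2X PBS, against 1.81, 36.9 and 33.8 CPM in 1X PBS, and 9 of 11 were called lower in the 5-library comparison. Over all genes 11.5% were called lower and 12.1% higher, beside which the counts of this paragraph stand. With all libraries 0 neutrophil markers and 1 monocyte and macrophage marker, higher in 2X PBS, did not overlap, against 5.4% of all genes higher and 6.05% lower. The median log2 fold changes were -1.39 and -1.065. S100a8, an abundant neutrophil gene, had 85.1, 87.1 and 85.3 CPM in 2X PBS, against 4.95, 294 and 392 CPM in 1X PBS, and Lyz2, a lysozyme gene of myeloid cells, had 297, 312 and 308 CPM against 24.7, 1241 and 1120.0 CPM. Mmp8, a neutrophil collagenase gene, was at 0 in 2X PBS replicate 1 and in 1X PBS replicate 1. Ly6g, the surface marker that defines neutrophils, was not tested and is named after its values were seen: it had 0.85, 0.18 and 0.30 CPM in 2X PBS, against 0, 2.49 and 2.32 CPM in 1X PBS. The 20 microglia markers stood at 38.6, 57.3 and 47.7 CPM in 2X PBS, against 26.3, 69.1 and 75.4 CPM in 1X PBS, with 11 called lower and 1 higher, and a median of -0.22 with all libraries. The gene called higher was Sall1, a transcription factor gene, at 39.4, 39.8 and 33.8 CPM in 2X PBS, against 36.1, 18.0 and 20.6 CPM in 1X PBS. Of 7 MHC class II genes 6 were called lower, and the median with all libraries was -0.95. H2-Ab1 had 42.8, 66.4 and 65.4 CPM in 2X PBS, against 20.2, 217 and 187 CPM in 1X PBS. The complement list shares its C1q genes with the microglia list, and several of the cytokine and immediate-early genes are known to be expressed by myeloid cells.

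Oligodendrocyte genes were lower in every library labelled 2X PBS than in every library labelled 1X PBS in 11 of 15 cases, against 6.05% of all genes. Over the 15 genes, 1X PBS replicate 1 was above all 2X PBS libraries in 13, within their range in 1 and below them in 1. Mbp, the myelin basic protein gene, had 564, 426 and 374 CPM in 2X PBS, against 928, 1203 and 701 CPM in 1X PBS. Its log2 fold change was -1.05 ± 0.32 with all libraries (adjusted p = 0.66) and -1.03 ± 0.19 without replicate 1 (adjusted p = 0.00145). Sox10, the transcription factor gene of the oligodendrocyte lineage, had 10.6, 8.98 and 5.92 CPM in 2X PBS, against 22.1, 21.3 and 14.8 CPM in 1X PBS. The list's median log2 fold change was -0.71 with all libraries and -0.78 without replicate 1, when 12 of 15 genes were called lower and 1 higher. Ugt8a, which is 1 of the 15 genes, was among the 12 genes of smallest p that were lower without overlap. So were Gjb1, Pllp and Tmem88b, further genes of myelinating cells outside the list. Of 7 oligodendrocyte precursor genes tested, 4 had a higher and 3 a lower mean in 2X PBS. Without overlap 1 was higher and 1 lower, against 5.4% and 6.05% of all genes. Sox10, of this list and not of the 15 genes, was the lower one. Olig2 was the higher one, at 9.7, 8.3 and 9.5 CPM in 2X PBS, against 4.9, 6.1 and 5.6 CPM in 1X PBS.

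Hemoglobin genes were lower in 2X PBS than in every 1X PBS library as well, whereas vessel genes were lower mainly than in replicates 2 and 3. The 4 hemoglobin genes took 0.350%, 0.212% and 0.0479% of the counts in 2X PBS, against 0.556%, 1.54% and 5.91% in 1X PBS. Hbb-bs had 1257, 745 and 182 CPM in 2X PBS, against 2070.0, 5772 and 24420.0 CPM in 1X PBS. Of 9 erythrocyte markers 7 were lower without overlap, against 6.05% of all genes. The copies of the globin genes are near-identical, so the share of each is uncertain, while Alas2, the erythroid heme synthesis enzyme, is a single gene and had 61.4, 30.1 and 8.29 CPM in 2X PBS, against 109.5, 215 and 900.1 CPM in 1X PBS. Of 15 endothelial genes 12 were called lower without replicate 1, against 11.5% of all genes. Their geometric means were 9.40, 8.57 and 10.3 CPM in 2X PBS, against 7.56, 17.9 and 24.0 CPM in 1X PBS, and replicate 1 was below all 2X PBS libraries in 9 of 15. In the 2 genes whose groups did not overlap it was above them. Cldn5, the tight junction gene of brain endothelium, was 1 of these. It had 10.6, 6.51 and 18.9 CPM in 2X PBS, against 26.2, 57.1 and 81.6 CPM in 1X PBS. Ackr1, a chemokine-binding receptor of venules outside the list, had 2.12, 1.94 and 5.03 CPM in 2X PBS, against 6.09, 39.6 and 62.2 CPM in 1X PBS. Of 15 mural and fibroblast genes 7 were called higher and 5 lower, against 12.1% and 11.5% of all genes. With all libraries 5 were higher and 0 lower without overlap, against 5.4% and 6.05% of all genes. Dcn, the proteoglycan decorin of fibroblasts, had 223, 229.6 and 272 CPM in 2X PBS, against 127, 158 and 179.7 CPM in 1X PBS. Acta2, the smooth muscle actin gene, had 2615, 2061 and 2751 CPM in 2X PBS, against 1935, 4260.0 and 4954 CPM in 1X PBS.

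Choroid plexus genes were called lower in 10 of 10 cases without replicate 1, against 11.5% of all genes. In replicate 1, 9 of 10 were below all 2X PBS libraries. With all libraries their median log2 fold change was -0.50 and 0 did not overlap. Ttr, the transthyretin gene that the choroid plexus makes in bulk, had 13830.0, 12930.0 and 15000.0 CPM in 2X PBS, against 8141, 25330.0 and 25810.0 CPM in 1X PBS. Otx2, a transcription factor gene of the choroid plexus, had 52.1, 46.0 and 46.5 CPM in 2X PBS, against 44.1, 94.2 and 80.9 CPM in 1X PBS. Ependymal genes were called lower in 5 of 12 cases and higher in 0, against 11.5% and 12.1% of all genes, with a median of -0.20 with all libraries. Neuronal genes gave 1 lower call among 10, near the 11.5% of all genes, with a median of -0.070 with all libraries. Their geometric mean was 13.02, 12.4 and 12.1 CPM in 2X PBS, against 13.1, 11.1 and 13.4 CPM in 1X PBS.

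Clock and sterol genes were higher in 2X PBS than in replicates 2 and 3. Of 17 circadian genes 11 were called higher and 1 lower, against 12.1% and 11.5% of all genes, with a median log2 fold change of 0.80. With all libraries 3 were higher and 1 lower without overlap, against 5.4% and 6.05% of all genes, and the median was 0.41. Per3, a period gene of the negative limb, had 144, 201 and 161 CPM in 2X PBS, against 142, 62.3 and 80.5 CPM in 1X PBS, and Nr1d1, which represses Arntl, had 229, 197 and 273 CPM against 201, 104 and 115 CPM. Arntl, of the positive limb, was lower in every 2X PBS library, at 29.2, 28.3 and 30.8 CPM, against 43.0, 37.1 and 35.7 CPM in 1X PBS. It was called in neither fit. Its log2 fold change was -0.27 ± 0.14 without replicate 1 and -0.39 ± 0.14 with all libraries (edgeR adjusted p = 0.18 and 0.744). Per1, which glucocorticoids and immediate-early signals also induce, was called lower without replicate 1, at 135, 171 and 164 CPM in 2X PBS, against 93.6, 292 and 280.2 CPM in 1X PBS. The labels give a window of 18 to 24 hours between injection and sort, but not the hour of sorting, and its part in these differences was not tested. Of 20 cholesterol synthesis genes 13 were called higher and 0 lower, against 12.1% and 11.5% of all genes, and the median with all libraries was 0.25. The list stood at geometric means of 114, 109 and 101 CPM in 2X PBS, against 120.4, 75.8 and 74.9 CPM in 1X PBS. Of 16 glucocorticoid-responsive genes 2 were called higher, near the 12.1% of all genes, and 7 lower, against 11.5%, and the median with all libraries was -0.28. Sgk1, a kinase gene of that response, stood at 175, 156 and 144 CPM in 2X PBS, against 90.5, 358 and 334 CPM in 1X PBS.

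Of 26 ribosomal protein genes 11 were called lower without replicate 1, against 11.5% of all genes, and 0 higher. Their median log2 fold change was -0.27 without replicate 1 and -0.13 with all libraries, and 24 of 26 were below all 2X PBS libraries in replicate 1. Of 26 nuclear oxidative phosphorylation genes 1 was called lower, and with all libraries 1 was higher and 1 lower without overlap, against 5.4% and 6.05% of all genes. Of the 13 mitochondrially encoded genes and the 18 replication and mitosis genes 0 were called by edgeR in either fit. With all libraries 2 of the 13 and 2 of the 18 were lower without overlap, and 0 of either were higher. Replicate 1 of 1X PBS was above all 2X PBS libraries in 13 of 13 mitochondrially encoded genes. In the fit of all 12 libraries 0 genes of these 3 lists had an unadjusted p under 0.05, and none was among the 17 called by DESeq2.

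**Figure D4:**
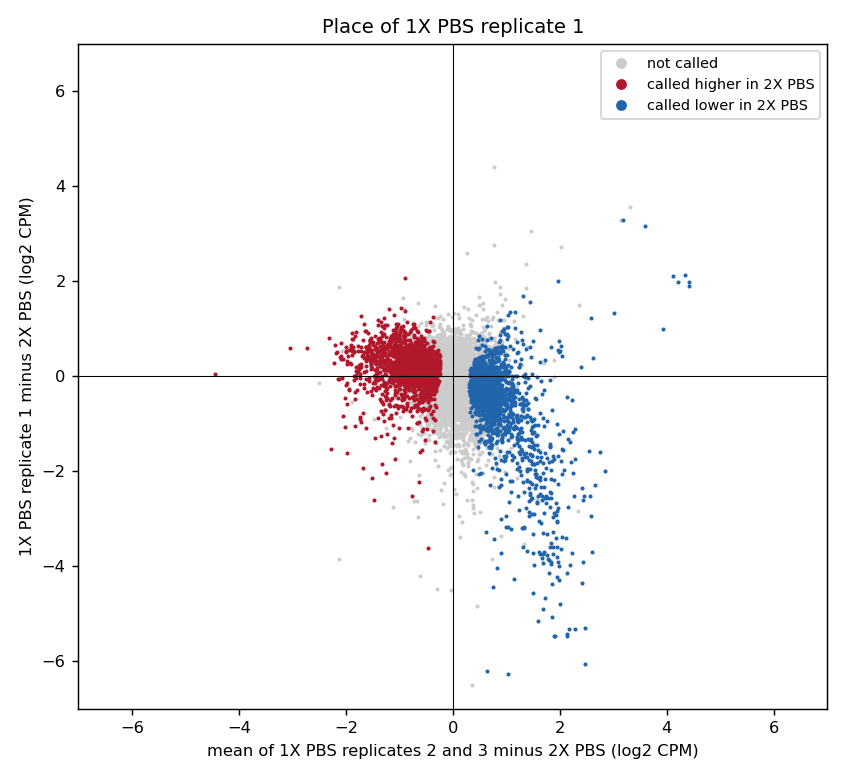
Log2 CPM of 1X PBS replicate 1 (vertical) and of the mean of replicates 2 and 3 (horizontal), each minus the mean log2 CPM of 2X PBS, for genes with a mean of at least 5 CPM in the 6 PBS libraries; genes called higher or lower in 2X PBS without replicate 1 are coloured, and both axes share the 2X PBS mean. Of 3293 coloured genes 2490 lie in the upper left or lower right, where replicate 1 and replicates 2 and 3 stand on opposite sides of the 2X PBS mean.

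Where replicate 1 stood for the genes called in the 5-library comparison shows how much of the contrast depends on it. Of the 1778 genes called higher in 2X PBS, replicate 1 was below all 2X PBS libraries, on the side of replicates 2 and 3, in 320 (18.0%), within the 2X PBS range in 410 (23.1%) and above it in 1048 (58.9%). Of the 1688 called lower, it stood on the side of replicates 2 and 3 in 224 (13.3%), within the range in 342 (20.3%) and on the far side in 1122 (66.5%). Among genes not called, it was above 2X PBS in 30.7%, within the range in 37.7% and below in 31.6%. The median SD of log2 CPM over 12717 genes was 0.159 in 2X PBS and 0.289 in 1X PBS, and the SD exceeded 1 in 68 genes in 2X PBS and in 873 in 1X PBS.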

How the data were processed

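RNA-seq of sorted astrocytes was deposited as 1 table per library with 142604 transcripts. Per the labels' protocols, libraries were made by SMART-Seq2 and quantified with kallisto 0.46.1 on the GRCm38 transcriptome, a model that shares reads out among the transcripts they match. The deposited estimated counts are raw, and the deposited TPM values have the same sum in each library. Whether strand was used in counting is not stated in the labels, so overlapping genes cannot be told apart, and near-identical copies are uncertain. For testing, the counts of all transcripts of a gene were added and rounded, which gave 55401 genes. Gene types and positions are those of GENCODE M21, matched by versioned identifier for 98.1% of genes; the rest have no gene type and were not eligible where protein-coding genes were named.

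The main test was the quasi-likelihood F test of edgeR 4.0.16 (R 4.3.3) after filterByExpr and TMM scaling, with 1 coefficient for each of 4 groups and all 12 RNA-seq libraries in one fit. p-values were adjusted by Benjamini-Hochberg across every gene in the fit and called at 0.05, and SE is the log2 fold change over the root of F. CPM are on TMM-scaled library sizes. A list's level averages log2(CPM + 0.5) over the members tested and is printed as CPM. Without molecular identifiers PCR copies are counted as molecules, and depth covers counting error only.

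The groups compared, the 40 gene lists, the 38-gene panel and the alternatives were chosen with earlier results of these data known. Named genes are, apart from clone names, the 12 protein-coding genes in each direction of smallest p without overlap and with a mean of at least 5 CPM, the 12 of largest change in each direction in the 5-library comparison under the same conditions with an adjusted p under 0.05, the panel, up to 4 members of each list by p, and up to 2 most abundant markers of each other cell type. The text names fewer, and some results are not reported here. Replicate numbers were not taken to pair libraries: deviations from the group means of same-numbered 2X PBS and 1X PBS libraries correlated at -0.0868, -0.0328 and -0.0594. Promoter windows were found for 172 of 235 named genes, and those on chromosome 18 were not searched for motifs. The 19 ATAC-seq samples were not analysed here. Alternatives used DESeq2 1.42.0, limma 3.58.1 (voom with sample quality weights, and limma-trend on log2(TPM + 1) for genes with a mean of at least 1 TPM), RLE scaling, other filters on low counts, fewer libraries and the replicate number as a block.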

Additional observations from a re-analysis of the deposited data

How the results depend on the processing

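The count of genes called between 2X PBS and 1X PBS was 0 with all 12 libraries and stayed 0 with RLE scaling, a filter at a mean of 10 CPM and the 6 PBS libraries alone. It was 17 with DESeq2, 97 without a low count filter, 1 with limma-trend on TPM, 2699 with voom and sample quality weights, which gave 1X PBS replicate 1 a weight of 0.159 and the other PBS libraries 1.30 to 1.64, and 2759 without the replicate 1 libraries of both 1X groups. Over fits that left out 1 library it ran from 0 to 3466: without 1X PBS replicate 1 it was 1116 with the cytokine libraries and 3466 without them, and 0 in the other 16 such fits. With the replicate number as a block it was 0, with 728 genes at an unadjusted p under 0.05; the numbers do not pair the libraries. Limma-trend on TPM moved the median of all genes to 0.15 on the log2 scale, and on that scale C3, Lcn2, Lyz2 and S100a8 had the opposite sign, at 0.59, 1.60, 0.083 and 0.22. Stat3 had the opposite sign, at -0.025 without both replicate 1 libraries and -0.013 by voom. Leaving out 1 library turned the sign of 5 of 80 named genes, with log2 fold changes from -0.80 to 0.50 for C3, -0.032 to 1.22 for Gja1, -1.01 to 0.23 for Lcn2, -0.088 to 1.40 for Slc1a3 and -0.025 to 0.36 for Stat3. For the other 75 no such fit turned the sign, and Ly6g and Olig2 were not among the 80. The causes were not tested. At library totals of 2330828 to 5521679 counts, genes near 1 CPM rest on few counts.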

Other observations

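In the libraries labelled cytokine, the 26 astrocyte identity genes stood at geometric means of 1001, 898 and 896 CPM in 2X cytokine and 441, 898 and 1029 CPM in 1X cytokine, and the 12 complement and acute-phase genes at 20.4, 18.8 and 13.5 CPM in 2X cytokine and 106, 22.7 and 19.8 CPM in 1X cytokine. On these lists 1X PBS replicate 1 stood at 1023 and 17.2 CPM, within the range of the 5 cytokine libraries other than 1X cytokine replicate 1. 1X PBS replicates 2 and 3 stood at 322 and 324 CPM on the first list and at 190.0 and 159 CPM on the second, outside that range.

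Other genes were lower in every 2X PBS library than in every 1X PBS library. Clca3a1, a membrane-associated gene known from lymphatic endothelium, had 0.85, 1.23 and 3.26 CPM in 2X PBS, against 19.8, 15.8 and 20.9 CPM in 1X PBS. Matn4, the extracellular matrix gene matrilin 4, had 2.12, 3.70 and 3.26 CPM in 2X PBS, against 13.3, 11.6 and 14.4 CPM in 1X PBS. Grip2, a scaffold gene of glutamate receptors, had 27.1, 28.3 and 36.4 CPM in 2X PBS, against 57.1, 55.7 and 68.7 CPM in 1X PBS, and Deptor, an inhibitor of the mTOR kinase, had 19.1, 18.7 and 18.9 CPM against 28.9, 34.9 and 33.2 CPM. In these 4 genes 1X PBS replicate 1 stood with replicates 2 and 3, as the absence of overlap requires.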
